A study of Gallus gallus with 6 samples.

Results

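The transcription factors that start and carry skeletal muscle formation were followed in anterior and posterior half-sclerotomes of the chick embryo. Members were the rows of the deposited gene table whose name equals one of 9 symbols (PAX3, PAX7, LBX1, EYA2, MYF5, MYF6, MYOD1, MYOG and MEF2C), compared without regard to case. Of the 17108 rows of the table, 7 matched by symbol. PAX7 was found in 1 further row, named Pax-7, a RefSeq synonym of the gene, and is described beside the 7 but left out of their counts. LBX1, a homeobox factor of muscle precursors that migrate to the limb, had no matching row and is not analysed here.

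Both groups were wild type embryos at Hamburger-Hamilton stage 18 (embryonic day 3), no treatment is named, and the labels separate them only by the part of the somite taken. Tissue came from the somites numbered 11 to 23 (the youngest being first), and each library was made from a pool of 100 pieces of 1 type, with 3 libraries of each type. Each pool is therefore a mixture of axial levels. The labels give neither the sex of the embryos nor whether the libraries of a group came from separate embryos, so the spread behind the authors' p-values may be partly technical. Levels are the authors' FPKM (fragments in relation to transcript length and library total), 1 value per group. No level has a replicate error, and the only measure of error is the q of the authors' Cuffdiff test. The depth of the libraries is unknown. A gene was called when q was under 0.05.

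The somite forms a ventral sclerotome, the source of vertebrae and ribs, and a dorsal dermomyotome, from which the myotome, the first skeletal muscle, arises. PAX3 and PAX7 mark dermomyotome progenitors, EYA cofactors act beside them, and the basic helix-loop-helix factors MYF5, MYF6, MYOD1 and MYOG commit cells to muscle and drive its differentiation, with MEF2 proteins as partners. A sclerotome sample is thus not the tissue in which these genes are best known. As a check of the tissue label, the sclerotome factor PAX1 had levels of 367 (anterior) and 490 FPKM (posterior), and PAX9 (row Pax-9, named after its value was seen) had 42.1 and 66.3. Also abundant in sclerotome, FOXC2 had 185 and 179 FPKM (q = 0.939) and PDGFRA, called in posterior, had 71.1 and 95.1 FPKM (q = 0.0190). All members were below each of these 4 genes in both groups. The check does not show whether the pieces held other tissue, and markers of other cells are given below.

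Of the 7 members, 6 were tested by the authors, and 3 of those were higher in anterior (PAX3, MEF2C and MYF5) and 0 in posterior. At an unadjusted p under 0.05 in the authors' Cuffdiff test the counts were 4 and 0, with 7.93% of all tested genes lower in posterior by that rule. Over all 10529 tested genes, 3.50% were called higher in anterior and 3.57% higher in posterior. The same 3 members were higher in anterior at q under 0.01 (2.33% of tested genes), at q under 0.1 (4.49%) and with at least a 2-fold difference required (1.68%). The level of every one of the 7 was lower in posterior, including 3 that were not called and 1 that was not tested. Of these, EYA2 was nearly equal (1.07-fold, q = 0.896), and the untested MYOD1 was at 0.701 and 0.584 FPKM. The median log2 ratio of all tested genes was 0.0046, so a lower posterior level alone is common. The samples are whole pieces of tissue. Fewer muscle-lineage cells, fewer other cells that express a member and less of each RNA per cell therefore cannot be told apart.

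**Figure D1:**
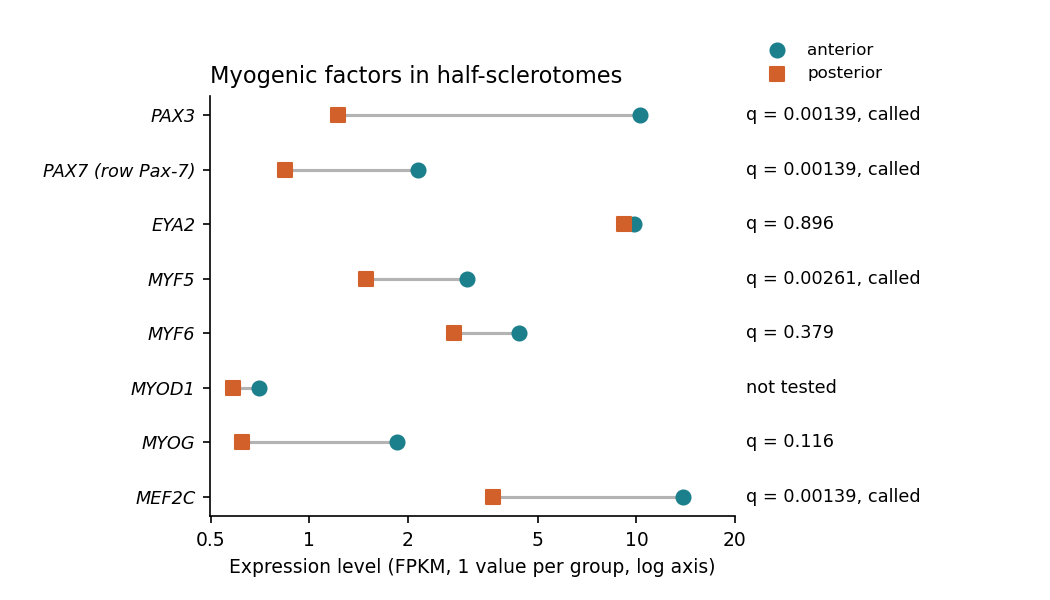
Levels of the myogenic factors in anterior (circles) and posterior (squares) half-sclerotomes, in FPKM on a log axis, with 1 value per group and the authors' q at the right. The anterior symbol lies to the right for every gene, from 0.701 against 0.584 FPKM for MYOD1 to 10.2 against 1.22 for PAX3.

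Among the upstream factors, PAX3 had a level of 10.2 FPKM in the anterior group, against 1.22 FPKM in the posterior group. This is an 8.36-fold lower level in posterior (log2 ratio of posterior over anterior -3.06, q = 0.00139), the widest separation of the members. Of 10473 tested genes with a level above 0 in both groups, 27 had a lower log2 ratio than PAX3, and 15 of those were called. Among the 2876 tested genes whose mean level lay within 2-fold of that of PAX3, 10 had a log2 ratio at least as large in size. Of these, 5 were called. PAX3 lies on galGal4 chromosome 9 from 7357518 to 7422566, and its locus is shared with no other row. Its 3 nearest rows at higher coordinates were SGPP2, FARSB and MOGAT1. Of these, FARSB, 51.1 kb away, was at 80.0 and 75.2 FPKM (q = 0.858). On the other side, the closest row was EPHA4, an Eph receptor gene called in anterior, 156 kb away, at 21.5 and 15.1 FPKM (q = 0.0121).

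PAX7, the paralogue of PAX3 that later marks resident muscle progenitors, had 2.15 FPKM in anterior against 0.844 FPKM in posterior. Its 2.55-fold difference (log2 ratio -1.35) reached the same q of 0.00139. PAX3 was 4.75 times as high as PAX7 in anterior but 1.45 times in posterior, a comparison of levels per length that has no error. The handling of reads that fit both paralogues is not stated in the labels or the table. On galGal4 the row spans chromosome 21 from 4442610 to 4530774. Its neighbours ALDH4A1 (12.1 and 10.1 FPKM, q = 0.440) and ATP13A2 (23.8 and 23.0, q = 0.937) were not called.

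EYA2, a transcriptional coactivator that is also a phosphatase, gave almost equal levels, 9.85 FPKM (anterior) and 9.18 FPKM (posterior; log2 ratio -0.10, q = 0.896). It was not called, and the sources used here give no interval for its difference. EYA2 and PAX3 had similar levels in anterior, where PAX3 was 1.04 times EYA2, whereas in posterior EYA2 was 7.50 times PAX3. EYA2 spans chromosome 20 from 6012484 to 6104467 on galGal4.

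The myogenic basic helix-loop-helix genes were all low. MYF5, the first of them to come on in the chick somite, had 3.04 FPKM in anterior against 1.50 FPKM in posterior. This 2.03-fold difference was called (log2 ratio -1.02, q = 0.00261). MYF6, also known as MRF4, had 4.37 FPKM in anterior against 2.77 FPKM in posterior and was not called (log2 ratio -0.66, q = 0.379). These genes are neighbours on galGal4 chromosome 1, with MYF6 from 39927239 to 39928682 and MYF5 from 39931917 to 39937449, 3234 bases apart. MYF6 had the higher level of the pair in each group, at 1.44 times MYF5 in anterior and 1.85 times in posterior. Whether the ratios of this pair differ from each other was not tested. Further out, PTPRQ was at 0.366 and 0.0755 FPKM and was not tested by the authors, and LIN7A was at 4.31 and 2.93 FPKM (q = 0.535).

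MYOG, which encodes myogenin and acts in terminal differentiation, had 1.85 FPKM in anterior against 0.623 FPKM in posterior. Its 2.97-fold difference (log2 ratio -1.57) was larger than that of MYF5 but was not called (q = 0.116). Among the 817 tested genes whose mean level lay within 2-fold of that of MYOG, 85 had a log2 ratio at least as large in size, MYOG included, and 38 of these were called. MYOG is on galGal4 chromosome 26 from 960278 to 964046. MYOD1, the commitment factor best known from cultured cells, had 0.701 FPKM in anterior against 0.584 FPKM in posterior and was marked as not tested. Of the 1422 rows with a mean level within 2-fold of its own, 83 (5.84%) were tested, so its status says nothing about a difference. MYOD1 is on galGal4 chromosome 5 from 11578793 to 11582278.

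Summed over MYF5, MYF6, MYOD1 and MYOG, the level was 9.96 FPKM in anterior against 5.47 FPKM in posterior. MYF6 made up 43.9% of that sum in anterior and 50.6% in posterior, and MYF5 30.5% and 27.3%. MYOG gave 18.6% and 11.4%, and MYOD1 7.04% and 10.7%. These shares are a description of levels per length, without error.

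MEF2C, a MADS-box factor that cooperates with the helix-loop-helix proteins and also acts in endothelium and heart, had the highest member level in anterior, at 13.9 FPKM against 3.64 FPKM in posterior. The difference was 3.81-fold (log2 ratio -1.93, q = 0.00139). Within 2-fold of its mean level, 26 of 3536 tested genes had a log2 ratio at least as large in size, and 24 of them were called. MEF2C lies on galGal4 chromosome Z from 60141410 to 60260421. The whole of chromosome Z held 495 tested genes, of which 46 were called in posterior and 17 in anterior. From 35 Mb on, a position chosen after the values were seen, it held 238 tested genes. Of these, 36 were called in posterior and 5, MEF2C among them, in anterior. Over all tested genes, 3.57% were called in posterior and 3.50% in anterior.

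**Figure D2:**
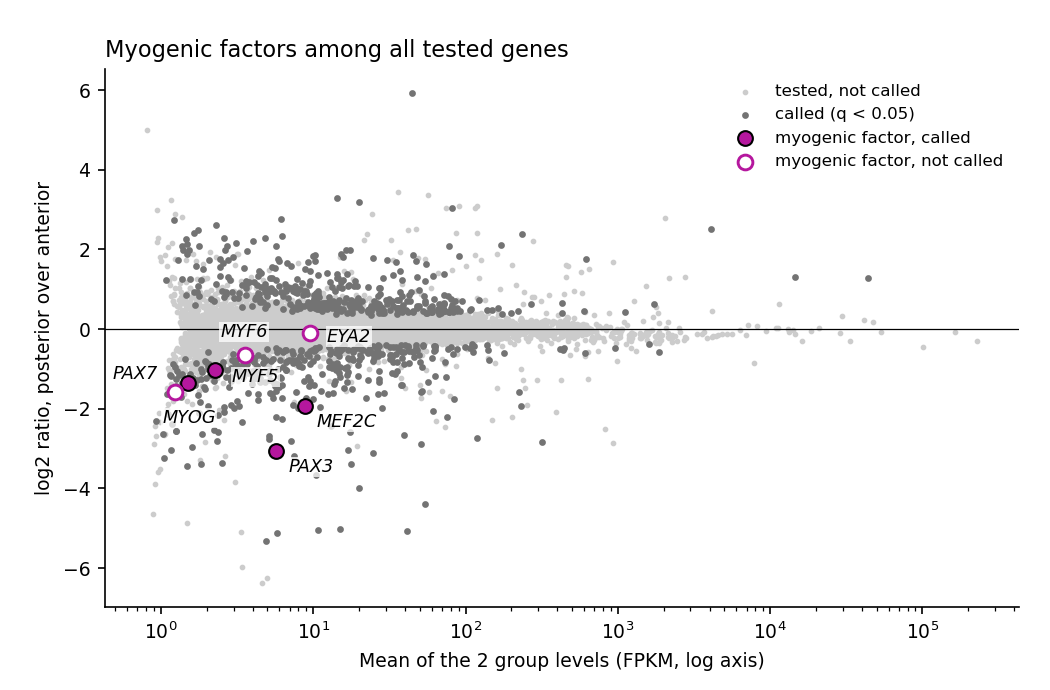
The log2 ratio of posterior over anterior against the mean of the group levels (FPKM, log axis) for all tested genes, with the tested myogenic factors in magenta (filled, called; open, not called). PAX3, MEF2C and MYOG lie below most genes of their level, at -3.06, -1.93 and -1.57. Genes of similar level with ratios as large in size include called and uncalled genes.

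In order of level, the members in anterior ran from MEF2C, PAX3 and EYA2 through MYF6, MYF5 and MYOG to MYOD1. In posterior the order was EYA2, MEF2C, MYF6, MYF5, PAX3, MYOG and MYOD1. PAX3 thus had rank 2 in anterior and rank 5 in posterior, and EYA2 had rank 3 and rank 1, while the other members kept their order among themselves. Which neighbours in these orders differ beyond their spread cannot be said from 1 value per group. Most levels were low among tested genes: PAX3 exceeded 34.4% of tested genes in anterior and 1.78% in posterior, and MYOG 4.40% and 0.674%.

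Within gene families, called members sat beside uncalled or opposite relatives. PAX1 and PAX9, the paired-box genes of sclerotome, were higher in posterior (log2 ratios 0.42 and 0.65, q = 0.0184 and 0.00139), against -3.06 for PAX3 and -1.35 for PAX7. PAX1 was 35.9 times as high as PAX3 in anterior and 400.5 times in posterior. MEF2A had 20.7 FPKM in anterior against 21.4 FPKM in posterior (q = 0.946), so MEF2C was at 0.670 of the level of MEF2A in anterior and at 0.170 in posterior. MEF2D was at 4.16 and 4.59 FPKM (q = 0.858). Among EYA genes, EYA1 (3.12 and 2.22 FPKM, q = 0.230) and EYA3 (38.7 and 37.3 FPKM, q = 0.934) were not called either. Relatives other than PAX1, MEF2A and DACH1 were named after their values were seen.

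**Figure D3:**
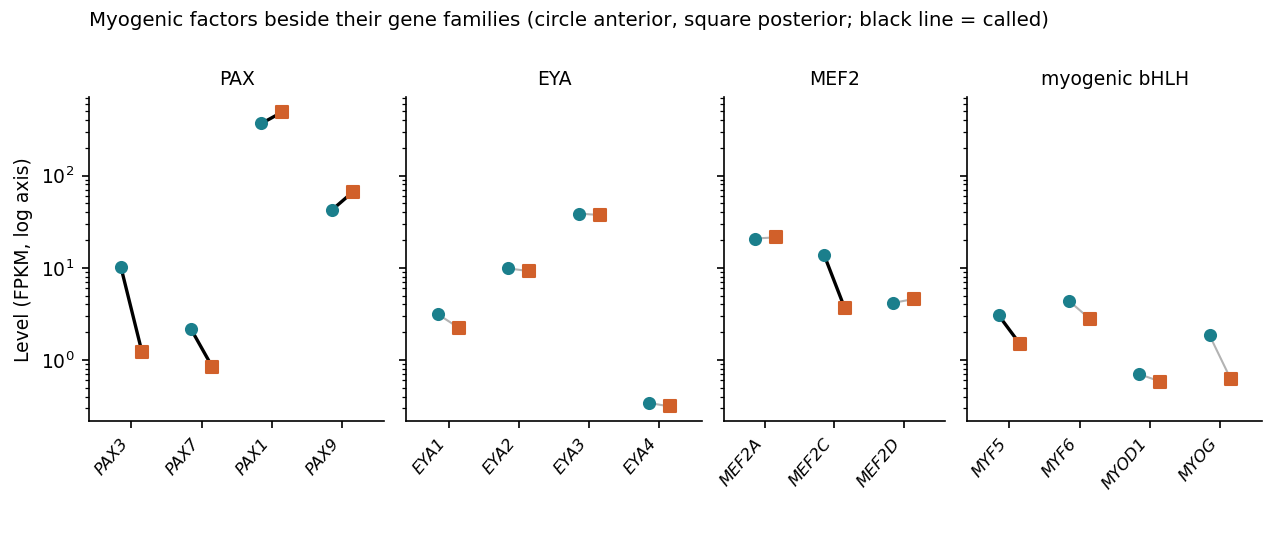
Levels in FPKM (log axis) of the myogenic factors and their measured relatives in anterior (circles) and posterior (squares), with a black line for genes called. PAX3 and PAX7 go down while PAX1 and PAX9 go up toward posterior, and MEF2C goes from 13.9 to 3.64 FPKM beside MEF2A at 20.7 and 21.4.

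Of all tested genes, 7.07% were called in either direction. In the list of EYA and DACH genes and their partners without EYA2, 1 of 5 tested genes was called, the corepressor gene DACH1, which was higher in posterior (1.33 and 4.64 FPKM, q = 0.00139) and shares its locus with another row. All 3 E protein genes, whose products dimerize with the myogenic factors, were tested and 0 called by the authors' Cuffdiff test, with 0 under an unadjusted p of 0.05. The most abundant in each group was TCF12, at 310 and 354 FPKM (q = 0.532). Of 13 tested chromatin and transcription cofactors, 0 were called in the same test and 1 had an unadjusted p under 0.05. By the mean of both groups the most abundant was the chromatin remodeller gene SMARCA4, which was at 56.6 and 60.4 FPKM (q = 0.848). The other MEF2 genes gave 0 calls in 2 tested, with 0 under an unadjusted p of 0.05.

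Inhibitors of myogenic proteins or of their expression were called in both directions, with 3 of 15 tested genes higher in anterior and 4 in posterior. The zinc finger repressor SNAI2 (38.6 and 15.4 FPKM, q = 0.00139), which is also a crest marker, and ZEB2 (23.1 and 11.0, q = 0.00139) were higher in anterior, as was MDFIC (q = 0.0204), a relative of the MyoD family inhibitor. Those higher in posterior were the Notch target row hairy1, matched to HES4 through a synonym (19.9 and 54.4 FPKM, q = 0.00139), SNAI1 (39.9 and 59.3, q = 0.00139), HEY1 (q = 0.00371) and ID2 (q = 0.0211), whose product titrates E proteins. The list had a median log2 ratio of 0.33, against 0.0046 for all tested genes. MDFIC, HEY1 and ID2 were named after their values were seen.

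Dermomyotome genes other than the members split as well, 4 of 14 tested being higher in anterior and 3 in posterior, with a median log2 ratio of -0.02. In anterior these were the growth factor gene PDGFA (row PDGF-A, 9.41 and 2.04 FPKM, q = 0.00139), the laminin receptor gene ITGA6 (38.4 and 16.0, q = 0.00139), the cadherin gene CDH4 (4.27 and 2.17, q = 0.00139) and the Hedgehog co-receptor gene CDON (9.88 and 6.83, q = 0.0278). In posterior they were TCF15, MEOX1 (row GGMOXr1) and MEOX2, at log2 ratios of 1.39, 1.30 and 0.73 and each at q = 0.00139, which sclerotome also expresses. TCF15 shares its locus with another row, as do MEF2A and FLI1. ITGA6, CDH4, CDON and MEOX2 were named after their values were seen.

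The list for migrating limb muscle precursors and their signals gave 1 call in anterior, EPHA4, and 2 in posterior among 7 tested. EPHA4 is the neighbour of PAX3 named above. The posterior calls were the chemokine gene CXCL12 (9.34 and 21.9 FPKM, q = 0.00139) and its receptor gene CXCR4 (3.84 and 8.09, q = 0.00865). The receptor gene MET (row c-met), needed for these cells to leave the somite in mouse, was at 0.538 and 0.325 FPKM and was not tested. Of 8 tested myoblast adhesion and fusion genes, 1 was higher in anterior, the metalloprotease gene ADAM12 (4.12 and 1.06 FPKM, q = 0.00139), which shares its locus with another row. Among 11 tested signals that act on the myotome, 2 were higher in anterior, the Notch ligand gene DLL1 (3.16 and 1.29 FPKM, q = 0.00261) and the Hedgehog effector gene GLI3 (27.6 and 18.5, q = 0.00139).

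Contractile and excitation genes of differentiated myotome lay on the same side as the called members. Of 23 tested, 13 were higher in anterior and 1 in posterior, with a median log2 ratio of -1.56. The shares over all tested genes were 3.50% and 3.57%. The troponin gene TNNT3 had 8.90 FPKM in anterior against 1.38 FPKM in posterior (log2 ratio -2.68, q = 0.00139), the myosin light chain gene MYL4 was at 98.4 and 23.8 (q = 0.00139) and the calcium store gene CASQ2 was at 4.59 and 1.22 (q = 0.00139). A row named Myl2, one of 2 rows with that symbol and uncertain for that reason, was at 4.04 and 0.672 FPKM (q = 0.0112). The posterior call was MUSK, a receptor kinase gene of the muscle synapse on chromosome Z, at 3.35 and 5.63 FPKM (q = 0.0169), named after its value was seen. The list is described here by counts only, and whether it moves more or less than the transcription factors was not tested.

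**Figure D4:**
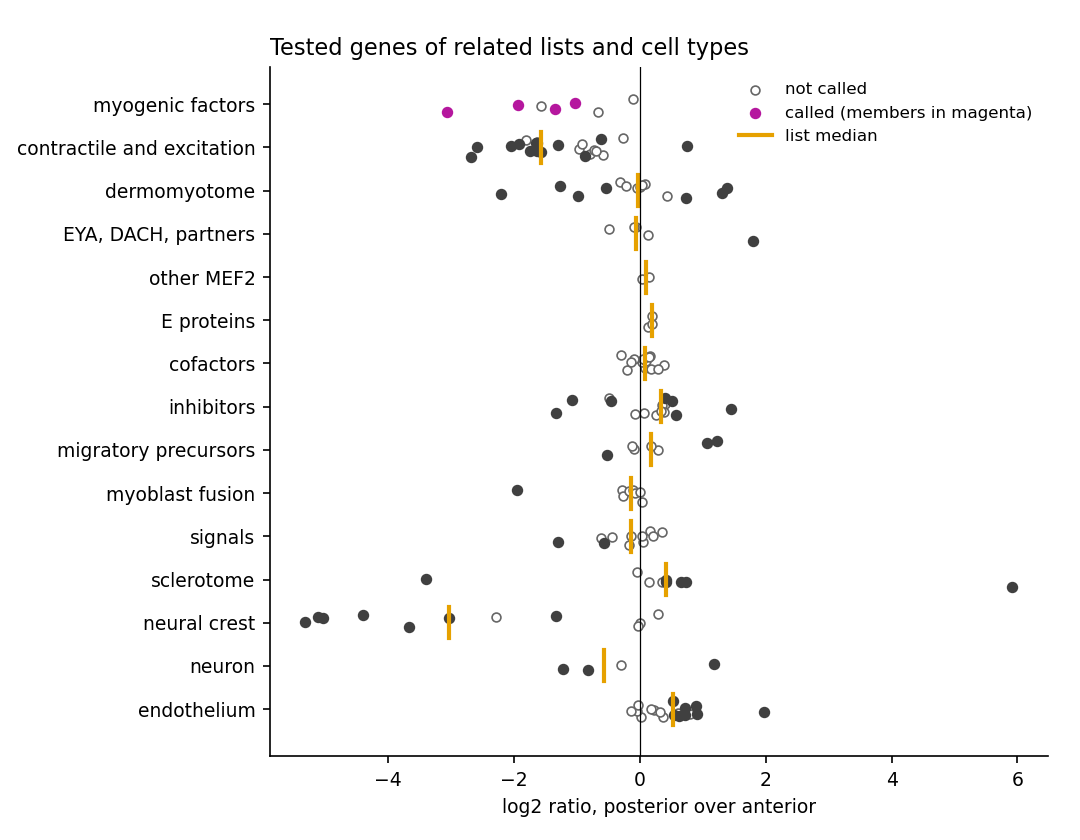
The log2 ratio of posterior over anterior of each tested gene in the myogenic factors (PAX7 included), in related lists and in cell type lists, with filled points for called genes and a bar at the median of each list other than the factors. Contractile genes and crest genes lie mostly left of 0, with medians of -1.56 and -3.03, while sclerotome and endothelium genes lie mostly to the right, at 0.42 and 0.54. Of 9 tested sclerotome genes, 5 were called in posterior and 1 in anterior. That list includes factors known to distinguish the anterior and posterior parts.

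Several members are also expressed outside the muscle lineage, and the levels of markers of those cells are given here. The members named with each cell type need not be the only ones that it expresses. Over all tested genes, 3.50% were called in anterior and 3.57% in posterior. At an unadjusted p under 0.05 in the authors' Cuffdiff test, 7.93% were lower in posterior. The share higher in posterior by that rule was not computed. Neural crest and Schwann cell precursors use PAX3. Of 13 crest genes with a row, 11 were tested, 7 were higher in anterior and 0 in posterior (9 under an unadjusted p of 0.05 in the authors' Cuffdiff test, 8 of them lower in posterior). Their summed level was 381 FPKM in anterior against 173 FPKM in posterior, and none was listed at 0. SOX10 stood at 103 and 4.92 FPKM (q = 0.00139), whereas NGFR was at 80.8 and 79.3 FPKM (q = 0.963) and ETS1 at 50.9 and 62.6 FPKM (q = 0.239). The part of crest cells in the difference of PAX3 or of any other member was not tested.

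Dorsal neural tube expresses PAX3 and PAX7. Of 6 neural tube genes with a row, 3 were tested, and 1, ZIC1, was called, higher in posterior (6.43 and 23.9 FPKM, q = 0.00139). Their summed level was 17.6 FPKM in anterior against 27.6 FPKM in posterior. Without ZIC1, an alternative added after seeing the data, the other 5 genes summed to 11.2 FPKM in anterior against 3.70 FPKM in posterior, and 4 of them were lower in posterior. PAX6 (row Pax-6, 0.464 and 0.0752 FPKM) and LMX1A (0.746 and 0.0493 FPKM) were not tested by the authors, and MSX1 (0.809 FPKM in anterior), also not tested, is listed at 0 in posterior. PAX6, LMX1A and MSX1 were named after their values were seen. SOX2, which made up most of the anterior sum without ZIC1, was at 6.74 and 0.107 FPKM and was not called (q = 0.680). DBX2 was at 2.40 and 3.47 FPKM (q = 0.521). Endothelium also uses MEF2C. Among 18 tested endothelial genes there were 8 posterior calls and 0 anterior calls, against 3.57% and 3.50% of all tested genes. Under an unadjusted p of 0.05 in the authors' Cuffdiff test there were 11, none of them lower in posterior. The summed level of the endothelial genes was 220 FPKM in anterior against 291 FPKM in posterior. FLI1 was at 38.2 and 34.8 FPKM (q = 0.781), ERG at 34.0 and 38.4 FPKM (q = 0.675) and PLVAP at 26.7 and 44.2 FPKM (q = 0.00139). The part of crest, neural tube or endothelial cells in the values of PAX3, PAX7 and MEF2C was not tested.

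Lists of other neighbouring tissues were also counted, beside 3.50% of all tested genes called in anterior and 3.57% in posterior. Tendon progenitors, which form between sclerotome and myotome, had 2 tested genes, TNC called in anterior (67.8 and 10.7 FPKM, q = 0.00139) and FMOD in posterior (1.27 and 4.22, q = 0.00139), and TNMD was at 0.598 and 0.703 FPKM and not tested. Neuron genes had 2 anterior calls and 1 posterior call among 4 tested. They were TUBB3 (64.4 and 36.4 FPKM, q = 0.00139), RET, named after its value was seen (5.80 and 2.48, q = 0.00139), and DCX (9.38 and 21.2, q = 0.00139), while ELAVL4 was not called (14.7 and 11.9, q = 0.606). Limb and lateral plate genes had 2 anterior calls among 5 tested, TBX2 (13.5 and 1.48 FPKM, q = 0.00139) and PRRX2, named after its value was seen (1.84 and 0.684, q = 0.0190). The abundant limb and lateral plate genes PRRX1 (10.5 and 9.26 FPKM, q = 0.845) and FOXF1 (10.4 and 10.2 FPKM, q = 0.987) were not called. Surface ectoderm (5 tested) and red blood cells (3 tested) had 0 calls in the authors' Cuffdiff test, with 1 and 0 under an unadjusted p of 0.05. The ectoderm genes of highest mean level were EPCAM (7.32 and 6.17 FPKM, q = 0.733), KRT19 (5.96 and 6.29, q = 0.989, in a locus shared with another row) and KRT8 (5.27 and 2.99, q = 0.0772). Those of red blood cells were HBG1 (512 and 434 FPKM, q = 0.401), HBAD (6.81 and 7.38, q = 0.926) and HBBA (row HBG2, 6.10 and 4.46, q = 0.502).

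For each called factor, the called genes closest to it in both group levels were looked up by Euclidean distance over the log2 levels of the 2 groups. For PAX3 they were GAL3ST1 (8.89 and 1.30 FPKM, distance 0.222), TNNT3 (distance 0.269) and TBX2 (distance 0.489). For MEF2C they were NEURL1B (13.8 and 4.19 FPKM, distance 0.203), MATN4 (12.8 and 3.22 FPKM, distance 0.218) and PRDM16 (11.5 and 3.83 FPKM, distance 0.282). MYF5 was closest to TOX (2.93 and 1.48 FPKM, distance 0.0550), SLC2A12 and DD1, and PAX7 to PHACTR3 (distance 0.0799), TTC39B and COL22A1. With 2 levels per gene such closeness is a description of levels and nothing more.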

How the data were processed

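Poly(A) RNA was read as 50 nt single-end reads from 6 stranded libraries, per the labels' protocols. Tools named without a role in the submitters' processing notes are TopHat2 2.1.0, Cuffdiff, Cufflinks 2.2.1 and FastQC, with the build galGal4. The deposited table gives 1 FPKM value per group, combined by the authors over its 3 libraries, and the authors' Cuffdiff p-value and q-value, per the file headers. How reads were counted and libraries scaled is not stated. Of 17108 rows, 10529 were tested. The deposited q-values equal Benjamini-Hochberg adjustment of the p-values over tested rows within 5.27e-07. The lowest p, 5e-05, was shared by 380 genes, which cannot be ranked by it.

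Log2 ratios were computed from the FPKM values without a pseudocount (Python 3.11.15, pandas 2.3.3), and no test was run here beyond a Benjamini-Hochberg step checked on simulated data. Starts are the table's plus 1. Members and the 19 gene lists were chosen with earlier results of these data known. Of 267 list genes, 222 had a row, 12 of them under a RefSeq (GRCg7b) synonym or an older name, and 157 were tested. Some genes are not reported here. For symbols with more than 1 row, a tested row was preferred, then the higher mean level. Genes named were all members, called list genes (up to 4 by log2 ratio, or the highest by mean level where none was called), the 3 of highest mean level in each cell type list and the 3 nearest to each called member. MET and the flanking genes, given for some members only, were named outside these rules. Alternatives varied the threshold, pseudocount, scaling and row filter.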

Additional observations from a re-analysis of the deposited data

How the results depend on the processing

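Anterior calls among the members numbered 3 at q thresholds of 0.05, 0.01 and 0.1. The count was also 3 with Benjamini-Hochberg adjustment over genes of mean FPKM of at least 1, and with at least 2-fold required. Leaving out rows that share a locus could not change it, because no member shares its locus. At an unadjusted p under 0.05 the count was 4, and it was 4 with PAX7 included. The median log2 ratio over the 7 members was -1.02, and it was -0.69 with a pseudocount of 1 FPKM and -1.19 with PAX7 included (an alternative chosen after seeing the data). Centring on the median, TPM and upper quartile scaling and a pseudocount of 0.1 FPKM left it between -1.03 and -0.98. Calls in the related pathway lists numbered 35 of 101 tested genes (24 in anterior and 11 in posterior). Of all tested genes, 7.07% were called. These lists were chosen with earlier results of these data known, so setting the counts beside that share is no test. Of the 35 calls, 14 were in the contractile list. At q thresholds of 0.01 and 0.1 the calls in these lists numbered 28 and 41, of which 9 and 14 were in posterior. Of all tested genes, 2.33% and 4.49% were called in anterior at these thresholds. The share called in either direction was not computed for them. No member's log2 ratio changed sign, but neither a pseudocount nor a threshold can change a sign. The scalings shifted all ratios alike, by 0.00459 (median), -0.0291 (TPM) and 0.0119 (upper quartile). The member ratio closest to no difference, that of EYA2, was -0.10, so the signs are no separate check. No paired analysis was possible because the table holds 1 value per group, and for the same reason no library could be left out. Without counts, no detection limit can be given for the low levels of MYOD1 or MYOG.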
